A study of Arabidopsis thaliana with 20 samples.

Results

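The UGT family of Arabidopsis thaliana was followed through the first days of synchronised flower development. Its members were taken as every gene whose symbol in the array's platform annotation begins with UGT followed by a number, a rule that uses the name and none of the measured values. This gave 52 genes on 53 probes, all of which could be tested, out of 28634 features tested in the whole series, of which 17186 carried a gene name. UGT73B2 had 2 probes, which were averaged, and the other genes had 1. A further 6 genes that the RefSeq gene table lists under UGT symbols (UGT74E2, UGT74F2, UGT75B1, UGT75B2, UGT84A2 and UGT85A1) were not analysed here.

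All samples came from 35S:AP1-GR ap1 cal plants. Loss of AP1 and CAL, which specify floral meristems, leaves these plants making meristem upon meristem where flowers would form, and a fusion of AP1 to a glucocorticoid receptor, expressed from the broadly active 35S promoter, is switched on by 1 µM dexamethasone. Each of 4 biologically independent sets gave inflorescence tissue from about 25 plants at each of 6 times, from day 0, when the fusion was activated, to day 5, and day 0 and every later day shared the genotype and the treatment. Each of the 20 two-colour arrays paired a day with the day before it from the same set, so every one of the 5 intervals had 4 arrays, with the dyes exchanged between sets. No untreated course was analysed here, so a change with the days cannot be told apart from one that follows age, handling or the hormone itself. In pooled tissue of this kind, fewer cells of a type and less RNA per cell cannot be told apart either.

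UDP-glycosyltransferases (UGTs) move a sugar from a UDP-sugar onto small molecules such as flavonoids, plant hormones, salicylate, precursors of lignin and of glucosinolates, and foreign compounds. The sugar generally makes the molecule more soluble, changes its transport or storage, and often inactivates a hormone. The number in a UGT symbol names the family and the letter the subfamily, and many subfamilies lie as runs of neighbouring genes.

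Each value is a log10 ratio of the later over the earlier day, so 0.301 would be close to 2-fold, and the value for day 5 against day 0 is the sum of the 5 ratios of a set. The means carry the SD over the 4 sets. A change is said to have passed, and a gene to have risen or fallen, where limma's test gave a Benjamini-Hochberg adjusted p under 0.05 over all features. The labels do not name the numerator of the ratios. They were taken as Cy5 over Cy3 and turned by dye, so the direction is likely rather than stated, and with the other channel order every sign below would be turned. Deposited values stop at 2 and -2, which is 100-fold, and 7 UGT genes had at least 1 value at such a limit (13.5% of members, against 5.99% of all features). Those genes are described together after the others.

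Of the 52 UGT genes, 9 passed in at least 1 interval or for day 5 against day 0 (17.3%, against 6.8% of all features), and 43 passed nowhere. All 9 were among the 45 genes with no value at a limit. From day 0 to day 1 only UGT74F1 passed, and it rose, against 3.32% of all features called. From day 1 to day 2 only UGT78D1 passed, again as a rise, against 1.15% called. From day 2 to day 3 no member passed by limma, although 6 had an unadjusted p under 0.05 (11.5%, against 8.5% of all features), and 0.419% of all features were called. From day 3 to day 4, 3 members passed, with 1.35% of all features called: UGT76E11 and UGT85A5 rose and UGT71C3 fell. From day 4 to day 5, 5 members passed and all were rises, namely UGT73C1, UGT76E11, UGT85A2, UGT85A3 and UGT85A5, with 0.758% of all features called. That was 9.62% of the members.

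Day 5 against day 0 was called for UGT76E11, UGT85A5 and UGT78D3, all higher, with 2.87% of all features called. A change in any interval, asked by 1 F test per gene, was called for 5 members (UGT71C3, UGT73C1, UGT76E11, UGT85A2 and UGT85A5), with 5.32% of all features called. A change that differed between the 5 intervals was called for UGT85A5 (adjusted p = 0.0229) and UGT85A2 (adjusted p = 0.0454), with 3.12% of all features called. That call of UGT85A5 held without set 1 and was lost without set 2, 3 or 4, and that of UGT85A2 was lost without any 1 set. Without set 3, 4 members passed from day 0 to day 1 (3.63% of all features in that fit), 4 from day 1 to day 2 (1.19%), 11 for any interval (5.32%) and 7 for a difference between intervals (3.6%). Without any 1 set, 1 member passed from day 4 to day 5, where the share of all features is not given here. For day 5 against day 0, 0 members passed in those fits, and no feature of the array did. The median member lay near 0 in every interval, between -0.00699 from day 0 to day 1 and 0.0228 from day 2 to day 3, against -0.00177 to 0.000136 for the median of all features.

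**Figure D1:**
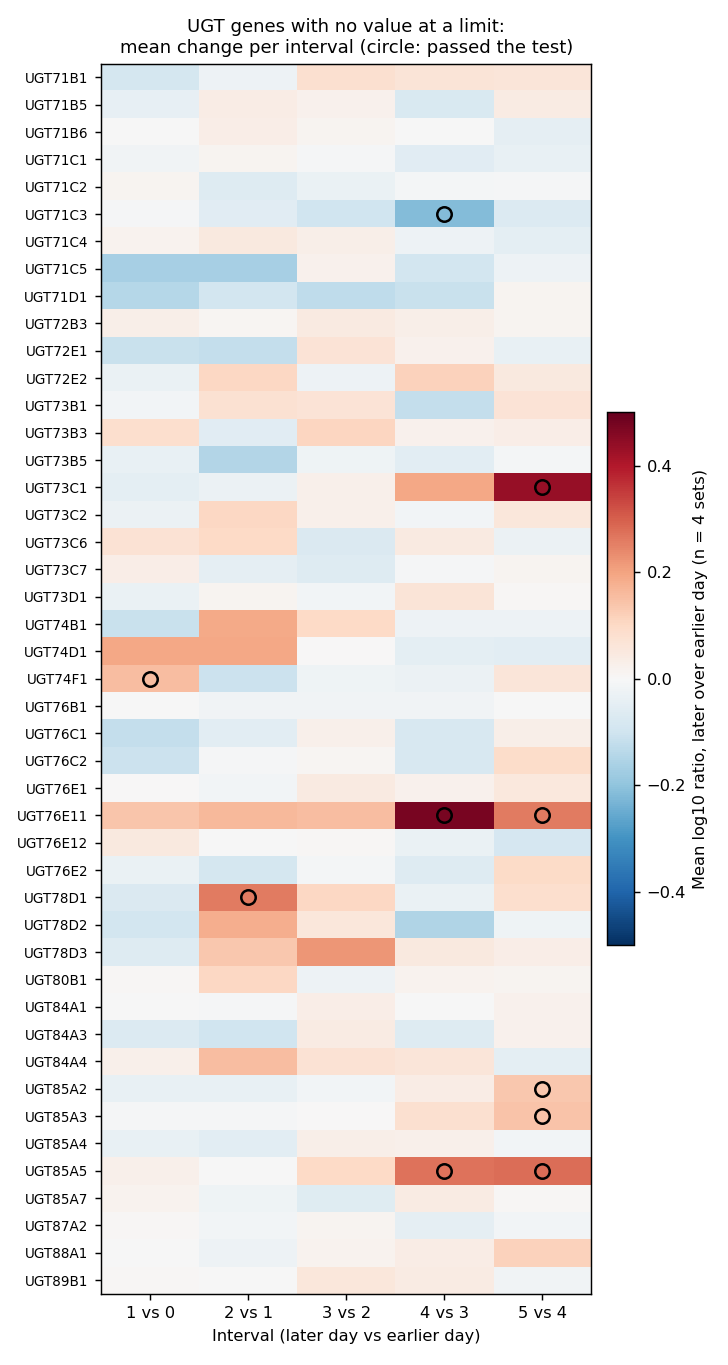
Mean log10 ratio of the later over the earlier day (colour, mean of 4 sets) for the 45 UGT genes with no value at a limit (rows) in each of the 5 intervals (columns); a circle marks a change that passed the test. Most cells are pale, and 8 of the 10 circles stand in the last 2 columns, with UGT76E11 and UGT85A5 circled in both.

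UGT76E11 had the largest called rise of the family. From day 3 to day 4 its log10 ratio was 0.561, 0.295, 0.502 and 0.548 in sets 1 to 4. All 4 sets were well above 0, set 2 the least. The mean was 0.476 ± 0.123, a 2.99-fold rise with an adjusted p of 2.185e-04, and this call held under every alternative run other than the reading of the ratios as already turned. From day 4 to day 5 the values were 0.330, 0.388, 0.168 and 0.147, a mean of 0.258 ± 0.119, which is 1.81-fold (adjusted p = 0.0299). Sets 1 and 2 made the larger step there.

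The earlier steps of UGT76E11 did not pass, but they lay on the same side. Its mean log10 ratio was 0.137 from day 0 to day 1, 0.163 from day 1 to day 2 and 0.153 from day 2 to day 3, and of the 20 single values only that of set 3 from day 0 to day 1 was below 0. Summed over the course, sets 1 to 4 reached 1.45, 1.30, 0.846 and 1.15. Set 3 ended lowest. The mean of 1.19 ± 0.257 is 15.4-fold over day 0 (adjusted p = 0.0187), of which 2.83-fold had been reached by day 3 and 8.48-fold by day 4.

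UGT76E12, the nearest member to UGT76E11, is separated from it by 1 gene in the RefSeq order that was not among the members. Its sums were 0.0459, 0.0317, -0.250 and -0.0857, with 2 sets on each side of 0 and a mean of -0.0644 ± 0.137 (adjusted p = 0.679). UGT76E11 exceeded UGT76E12 in 4 of 4 sets, by 1.25 ± 0.126 on the log10 scale (exact sign-flip test, two-sided p = 0.125, the smallest that 4 sets allow). Adjusted over 15 comparisons, in which a pair with both genes called was entered from each side, the sign-flip p was 0.156. In this pair and those below, a gene had been chosen for a call in these same sets, which partly sets the direction. The other UGT76E genes among the members, UGT76E1 and UGT76E2, summed to 0.106 ± 0.170 and -0.102 ± 0.193 and did not pass. UGT76E3, UGT76E4 and UGT76E5 were not measured under those symbols. The day 4 to day 5 rise of UGT76E11 was lost with the tissue set as a block (adjusted p = 0.0609), with arrays scaled to 1 spread (0.137) and without any 1 of the 4 sets (0.170, 0.232, 0.0821 and 0.0736 without sets 1 to 4). The day 5 against day 0 call was likewise lost without any 1 set (adjusted p 0.0761 to 0.122), where no feature of the array passed by limma although 3618 to 4721 had an unadjusted p under 0.05.

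The UGT85A genes form the only UGT cluster here in which more than 1 gene passed. UGT85A7, UGT85A2, UGT85A5 and UGT85A3 follow each other in that order on chromosome 1 with no gene between them, and UGT85A4 lies elsewhere on it. UGT85A5 rose in each of the last 2 intervals, and UGT85A3 and UGT85A2 passed in the last one, with smaller mean changes. UGT85A7 and UGT85A4 passed in none.

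For UGT85A5, the log10 ratios from day 3 to day 4 were 0.267, 0.246, 0.334 and 0.245, closely grouped. Their mean of 0.273 ± 0.0419 is 1.88-fold (adjusted p = 0.00326). From day 4 to day 5 they were 0.484, 0.137, 0.225 and 0.273, with set 1 the highest and set 2 the lowest, and the mean of 0.280 ± 0.147 is 1.90-fold (adjusted p = 0.00493). Before day 2 the mean changes were 0.0272 and -0.00135, so the rise of UGT85A5 lay in the later days. Over the course its sums were 0.843, 0.535, 0.584 and 0.750, all above 0, with a mean of 0.678 ± 0.143, a 4.77-fold rise (adjusted p = 0.0218).

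From day 4 to day 5, UGT85A3 had log10 ratios of 0.0652, 0.168, 0.121 and 0.209 (mean 0.141 ± 0.0620, 1.38-fold, adjusted p = 0.0342). UGT85A2 had 0.213, 0.106, 0.0859 and 0.132 in the same interval (mean 0.134 ± 0.0557, 1.36-fold, adjusted p = 0.0224). Both were above 0 in every set. UGT85A7 was split, with 0.0920, 0.142, -0.0768 and -0.135, a mean of 0.00559 ± 0.133, and UGT85A4 averaged -0.0139. Over the whole course UGT85A5 exceeded each of UGT85A7, UGT85A2 and UGT85A3 in 4 of 4 sets, by 0.699 ± 0.342, 0.591 ± 0.0732 and 0.469 ± 0.176 on the log10 scale (exact sign-flip test, p = 0.125 each). Its sum was called in these same sets, so that direction is partly set by the choice of UGT85A5. The extent to which near-identical neighbours share signal on these probes was not tested.

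The calls of UGT85A2 and UGT85A3 from day 4 to day 5 were lost with the tissue set as a block (adjusted p 0.0704 and 0.101) and with arrays scaled to 1 spread (0.0713 and 0.0580). UGT85A2 was also lost without any 1 set (0.0846 to 0.201). UGT85A3 was lost without set 1, 2 or 4 (0.0542, 0.287 and 0.371) and without the dye coefficient (0.0821), and its day 3 to day 4 change passed without set 3 (mean 0.113, adjusted p = 0.0194, against 0.324 with all sets). For UGT85A5, the day 3 to day 4 call was lost without set 3 or set 4 (0.0674 and 0.117), the day 4 to day 5 call also without set 3 or set 4 (0.0833 and 0.101), and the day 5 against day 0 call without any 1 set (0.0977 to 0.110). Without any 1 set, no feature of the array passed for day 5 against day 0.

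UGT73C1, which in Arabidopsis can glucosylate cytokinins, rose late. Its log10 ratios from day 4 to day 5 were 0.539, 0.492, 0.403 and 0.302, all high. The mean of 0.434 ± 0.105 is 2.72-fold (adjusted p = 0.0113), the largest rise of that interval among the members. From day 3 to day 4 set 4 stood at 0.543 and sets 1 to 3 between 0.0264 and 0.126, so the mean of 0.195 ± 0.235 did not pass (adjusted p = 0.347). Its sums of 0.546, 0.694, 0.286 and 0.785 averaged 0.578 ± 0.218, or 3.78-fold, just short of the threshold (adjusted p = 0.0596).

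The other members of the UGT73C1 cluster did not pass. UGT73C2, next to it, summed to 0.143 ± 0.216, and UGT73C6, a flavonol and brassinosteroid glucosyltransferase with 2 genes between it and UGT73C2, to 0.111 ± 0.288. UGT73C1 exceeded UGT73C2 in 4 of 4 sets, by 0.434 ± 0.128, and UGT73C6 in 3 of 4, by 0.467 ± 0.464 (exact p = 0.125 and 0.250). The other measured cytokinin genes, UGT76C1 and UGT76C2, which attach glucose to ring nitrogens, had sums of -0.197 ± 0.202 and -0.0894 ± 0.0455, so 1 of the 3 cytokinin UGTs measured passed, with 0.758% of all features called from day 4 to day 5. The UGT73C1 call was lost with arrays scaled to 1 spread (adjusted p = 0.0635) and without set 1, 2 or 3 (0.134, 0.0704 and 0.133).

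**Figure D2:**
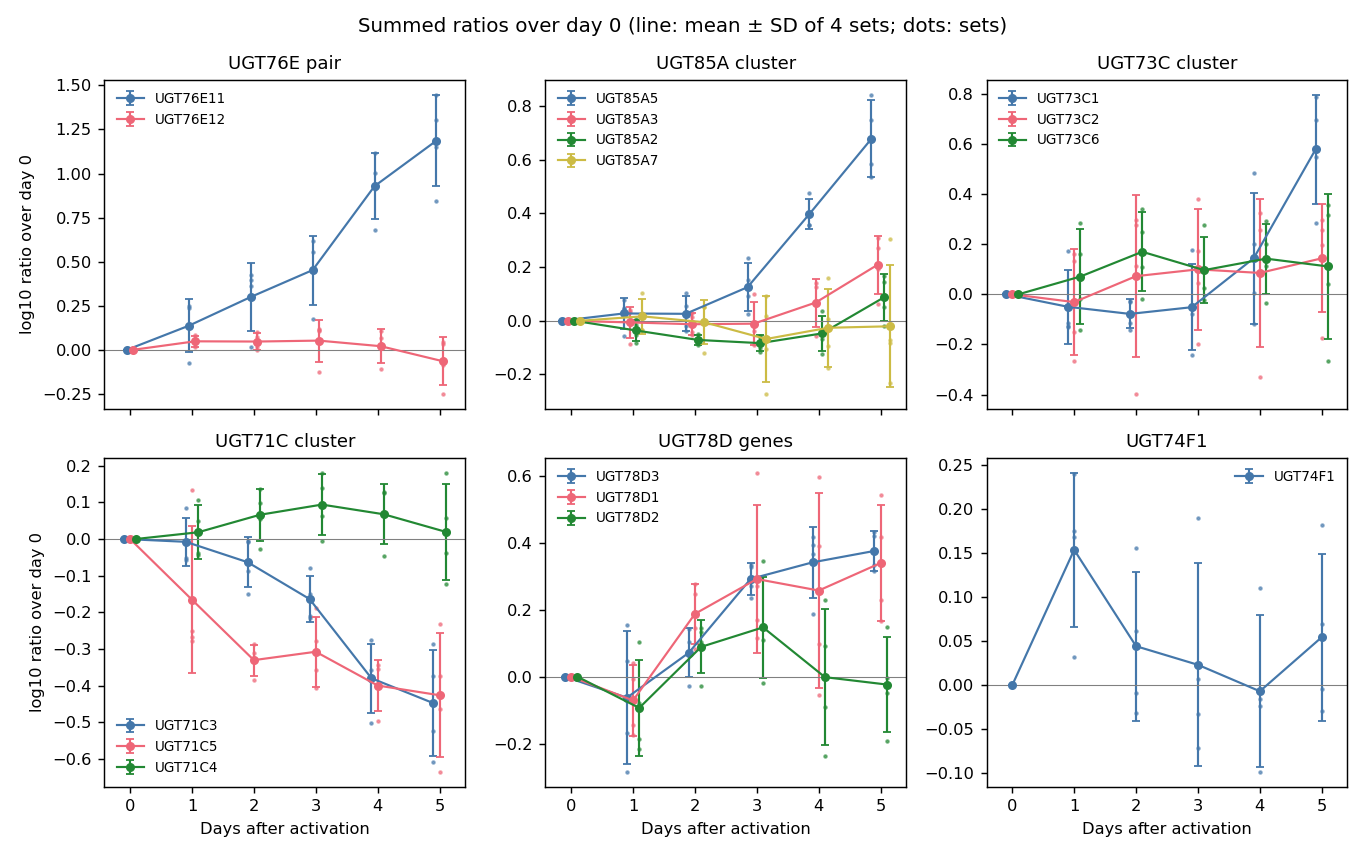
Log10 ratio over day 0 against days after activation for the UGT genes that passed a test and for their neighbours or subfamily members, each panel with its own scale; lines join the means of 4 sets, bars are the SD and dots are single sets. UGT76E11 climbs to 1.19 while UGT76E12 stays near 0, UGT85A5 and UGT73C1 climb in the last days, and UGT71C3 and UGT71C5 both end below -0.4 while UGT71C4 does not.

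Some markers of other cell types moved in the same intervals as these late rises. MUTE, a regulator of the stomatal lineage, rose from day 3 to day 4 (0.706 ± 0.193, adjusted p = 4.242e-04) and from day 4 to day 5 (0.489 ± 0.184, adjusted p = 0.0149), and FAMA, the other stomatal gene measured, summed to 1.39 without passing. Of 3 anther genes, SPL rose in both intervals (0.162 and 0.166). EMS1 and AMS did not pass, and from day 4 to day 5 the lower of them stood at -0.106 and the higher at 0.195. Of 2 green tissue genes, RCA rose from day 4 to day 5 (0.197 ± 0.0509, adjusted p = 0.0244) and LHCB4.1 did not pass (0.116). The trichome regulator TRY rose from day 0 to day 1 (0.369) and was higher on day 5 than on day 0 (0.679, adjusted p = 0.0166), the wounding gene WRKY53 rose from day 4 to day 5 (0.180), and no gene of the vascular list was measured. Over the course the summed ratios of the 9 markers ran between -0.151 and 1.50. Their part in the UGT rises was not tested.

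The fall that passed was in UGT71C3, an enzyme that glucosylates methyl salicylate. From day 3 to day 4 its log10 ratios were -0.195, -0.206, -0.171 and -0.292, below 0 in every set. The mean of -0.216 ± 0.0530 is 1.64-fold lower (adjusted p = 0.00274). It was below 0 in all 4 sets from day 1 onward in every interval, and its sums of -0.287, -0.372, -0.607 and -0.524 averaged -0.447 ± 0.145, 2.80-fold lower on day 5 than on day 0, which did not pass (adjusted p = 0.0522). The day 3 to day 4 call was lost without set 2 or set 4 (0.0536 and 0.130), and the day 5 against day 0 value passed with limit values set to missing (0.0165), with a value required on every array (0.0485) and as a sum of the interval coefficients (0.00244).

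The UGT71C cluster held a second gene with a low sum. UGT71C5, which conjugates abscisic acid to glucose, UGT71C4 and UGT71C3 follow each other with no gene between them. UGT71C5 summed to -0.231, -0.464, -0.635 and -0.373, a mean of -0.426 ± 0.169 (2.67-fold lower, adjusted p = 0.0734). UGT71C4 between them stayed near 0, at 0.0194 ± 0.131. UGT71C3 lay below UGT71C4 in 4 of 4 sets, by -0.467 ± 0.102 (exact p = 0.125), and differed from UGT71C5 by -0.0215 ± 0.105 with 2 sets on each side of 0 (exact p = 0.750).

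The lowest sum among genes with no limit value belonged to UGT71D1, at -0.448, -0.668, -0.302 and -0.421 (mean -0.460 ± 0.152, 2.88-fold lower, adjusted p = 0.0530). Every set was below 0, set 2 the furthest. It passed with limit values set to missing (0.0166), with a value required on every array (0.0493) and with arrays scaled to 1 spread (0.0415). Its cluster partners UGT71C2 and UGT71C1 summed to -0.0999 ± 0.113 and -0.104 ± 0.0296. Of the 9 UGT71 genes with no limit value, UGT71B1, UGT71B5 and UGT71B6 summed to 0.0968, -0.0149 and 0.000800.

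Of the flavonoid genes, UGT78D1, a flavonol rhamnosyltransferase, rose from day 1 to day 2, with 0.320, 0.229, 0.234 and 0.252 (mean 0.259 ± 0.0420, 1.81-fold, adjusted p = 0.0466). The 4 sets were close together. UGT78D2, the flavonoid glucosyltransferase that acts on anthocyanidins and flavonols, had 0.319, 0.189, 0.0421 and 0.180 in that interval (mean 0.182 ± 0.113, adjusted p = 0.166), and UGT78D3, a flavonol arabinosyltransferase, 0.256, 0.273, -0.0871 and 0.0955 (mean 0.134 ± 0.168, adjusted p = 0.392).

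UGT78D3 summed to 0.333, 0.433, 0.420 and 0.317, the tightest of the called sums, and was 2.38-fold higher on day 5 than on day 0 (mean 0.376 ± 0.0595, adjusted p = 0.0287). UGT78D1 summed to 0.340 ± 0.172 and did not pass (adjusted p = 0.121). UGT78D2, separated from UGT78D3 by 1 gene on chromosome 5, summed to -0.0235 ± 0.141, and from day 3 to day 4 its mean was -0.149 ± 0.0728 (adjusted p = 0.349). UGT78D3 exceeded UGT78D2 in 4 of 4 sets, by 0.399 ± 0.115 (exact p = 0.125). The UGT78D1 call was lost with the tissue set as a block (adjusted p = 0.108), with arrays scaled to 1 spread (0.0853) and without set 1, 2 or 4 (0.263, 0.189 and 0.252). The UGT78D3 call was lost without any 1 set (0.0959 to 0.158), where no feature of the array passed for day 5 against day 0. It was also lost as a sum of the interval coefficients, which take the spread from all arrays (0.263).

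The fuller flavonoid list had 8 measured genes, 2 of them annotated without a UGT number, and their sums had a median of 0.0730, against -0.00327 over all features. From day 1 to day 2, 1 of the 8 passed, with 1.15% of all features called. For day 5 against day 0, 1 passed, with 2.87% called. The hydroxycinnamate glucosyltransferases UGT84A4, UGT84A1 and UGT84A3 summed to 0.261 ± 0.139, 0.0518 ± 0.114 and -0.167 ± 0.264, and UGT79B1 (named UF3GT in the annotation) and UGT79B6 (given by its locus) to 0.0942 ± 0.0306 and -0.00137 ± 0.228. Of 4 flavonoid pathway genes measured, DFR, the reductase on the way to anthocyanins, fell from day 0 to day 1 (-0.371 ± 0.259, adjusted p = 0.0233), rose from day 3 to day 4 (0.695 ± 0.112, adjusted p = 3.734e-04) and was higher on day 5 than on day 0 (0.686 ± 0.240, adjusted p = 0.0496). CHI, CHIL and BAN passed in no test, with sums of 0.0152, 0.297 and 0.0361.

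UGT74F1, a salicylate glucosyltransferase, was the 1 member that rose from day 0 to day 1. Its log10 ratios were 0.175, 0.240, 0.0316 and 0.167, with set 3 close to 0. The mean of 0.153 ± 0.0875 is 1.42-fold (adjusted p = 0.0419). From day 1 to day 2 all 4 sets were below 0 (mean -0.109 ± 0.0525, adjusted p = 0.229), and by day 5 the sum was 0.0544 ± 0.0945. The trichome marker TRY rose in the same first interval, and its part in this result was not tested. The rise was lost with the tissue set as a block (adjusted p = 0.0980) and without set 1, 2 or 4 (0.259, 0.367 and 0.261).

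Of the 7 listed salicylate and defence UGTs measured, UGT74F1 alone passed, with 3.32% of all features called from day 0 to day 1. UGT71C3, which glucosylates methyl salicylate and fell from day 3 to day 4, was not on that list. UGT73B5, whose loss alters responses to bacterial infection, summed to -0.266 ± 0.215 and was the fourth lowest of the genes with no limit value, with -0.529, -0.0447, -0.345 and -0.144 in sets 1 to 4. All were below 0 but they spread widely (adjusted p = 0.253). UGT73B3, UGT73D1 and UGT76B1, the last a glucosyltransferase of isoleucic acid and salicylate, summed to 0.191 ± 0.199, 0.0379 ± 0.214 and -0.0574 ± 0.146. BSMT1, which makes methyl salicylate and was the 1 other salicylate gene measured, summed to -0.297 ± 0.581.

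The other role groups held no member that passed. Among the auxin genes, UGT74D1 summed to 0.284 ± 0.124 (adjusted p = 0.107), and its means were 0.192 from day 0 to day 1 and 0.193 from day 1 to day 2. Of 5 auxin conjugation genes measured, GH3.3, which joins auxin to amino acids, rose in 3 intervals and was 6.07-fold higher on day 5 than on day 0 (0.783 ± 0.116, adjusted p = 0.0158), and the other 4 did not pass. UGT71B6, an abscisic acid glucosyltransferase, stayed at 0.000800 ± 0.130. UGT74B1, which adds the sugar in glucosinolate synthesis, had means of -0.113, 0.190 and 0.0981 in the first 3 intervals and summed to 0.124 ± 0.0852, while BCAT4 of the same pathway summed to -0.0411.

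The monolignol glucosyltransferases UGT72E2 and UGT72E1 summed to 0.210 ± 0.189 and -0.179 ± 0.145. UGT72B1, annotated as GT72B1 and so no member by the symbol rule, rose from day 0 to day 1 (0.208 ± 0.0905, adjusted p = 0.00786) and summed to 0.164 ± 0.0165. The lignin pathway genes HCT, CCOAMT and ALDH2C4 passed in no test, with sums of 0.0499 to 0.0701. UGT80B1, a sterol glucosyltransferase, had the narrowest spread of any member's sums (0.113 ± 0.0205, adjusted p = 0.232), and its relative UGT80A2, annotated as SGT, summed to -0.0249 ± 0.109. UGT87A2, which affects flowering time, summed to -0.0504 ± 0.0725.

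**Figure D3:**
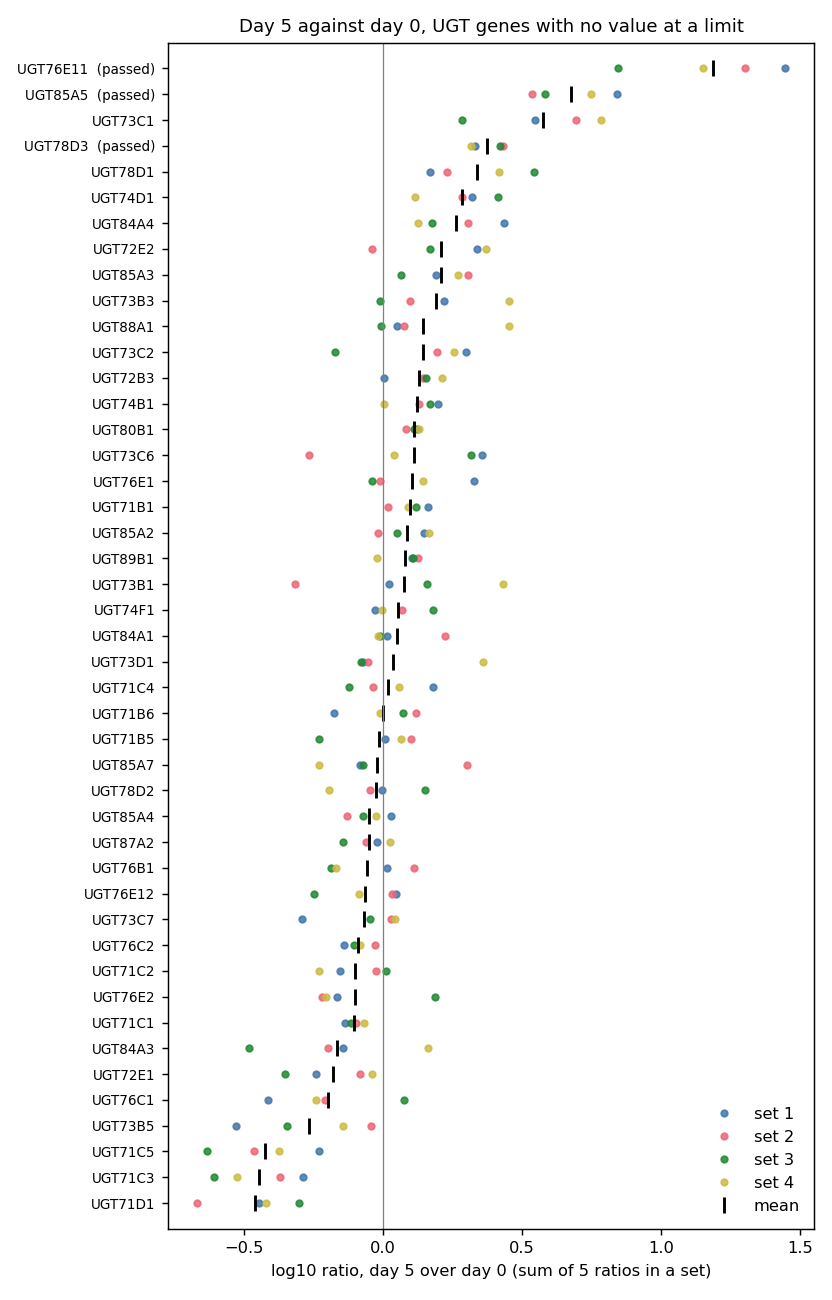
Sum of the 5 log10 ratios (day 5 over day 0) in each of the 4 sets (coloured points) and its mean (black tick) for the 45 UGT genes with no value at a limit, ordered by the mean; "passed" marks adjusted p under 0.05. UGT76E11, UGT85A5, UGT73C1 and UGT78D3 lead with all 4 sets above 0, and UGT71D1, UGT71C3 and UGT71C5 end the order with all 4 sets below 0.

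Among the 45 genes with no limit value, 8 had a mean sum of at least 2-fold (5 higher and 3 lower), where 7.32% of the 26916 such features did, and 19 lay within 0.1 of 0. The 36 of them that passed nowhere had sums of -0.460 to 0.284 and single interval means of -0.166 to 0.193. The median absolute sum was 0.111, against 0.0750 over all features with no limit value. The spread over sets limited what could be seen: a gene's median SD over the intervals ran between 0.0433 and 0.188, with a middle value of 0.0885. All 4 sets had the same sign for day 5 against day 0 in 21 of the 52 members (40.4%), where 27.8% of all features did.

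By family, with 6.8% of all features called in at least 1 interval or for day 5 against day 0, the calls were spread over 6 families. All calls of the UGT76 genes came from 1 of 8, those of UGT73 from 1 of 10, those of UGT74 from 1 of 3 and those of UGT71 from 1 of 10, while 3 of 5 UGT85 genes and 2 of 3 UGT78 genes passed somewhere. None of the 4 UGT72 and 5 UGT84 genes did, nor the single members of UGT80, UGT87, UGT88 and UGT89. The median sum was highest for UGT78 at 0.340, and it was 0.0868 for UGT85 and -0.0574 for UGT71. These counts are descriptions of few genes per family and were not tested against each other.

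The 7 genes with values at a limit had 71 of 1060 array values there, all at the upper limit of the deposited ratios. UGT73B4 stood at the limit on all 20 arrays and UGT72E3 on 16, under both dye assignments. UGT84B2 had 11 such values, 1 probe of UGT73B2 had 10, UGT76D1 and UGT84B1 had 6 each and UGT71B8 had 2. Except in UGT71B8, the limit was reached whichever day carried which dye. Turning the ratios then makes these values opposite in sign between sets, and the sums of single sets reach large values in both directions.

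None of these 7 genes passed a test. UGT76D1, a glucosyltransferase of dihydroxybenzoates, had the lowest mean sum at -1.51 ± 0.633 (adjusted p = 0.0646), with 5 of its 6 limit values on arrays with the later day in Cy3. UGT84B2 had -0.758 ± 3.39, UGT73B2 1.04 ± 0.961, UGT71B8 0.792 ± 1.75 and UGT84B1, an auxin glucosyltransferase, 0.0263 ± 1.19. For UGT73B2 the second probe never reached a limit and summed to 0.165 ± 0.110, while the first gave 1.91 ± 1.94. UGT72E3 summed to -0.0548 ± 2.32 and UGT73B4 to 0 ± 2.31. The dye coefficient passed for 6 of these 7 genes and for 5 of the other 45. The 7 were set apart for limit values, which in all but UGT71B8 were reached under both dye assignments. Such values give a high dye coefficient by themselves, so the count of 6 follows largely from that choice. The share of all features whose dye coefficient passed is not given here, so these counts cannot be set against the whole array.

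**Figure D4:**
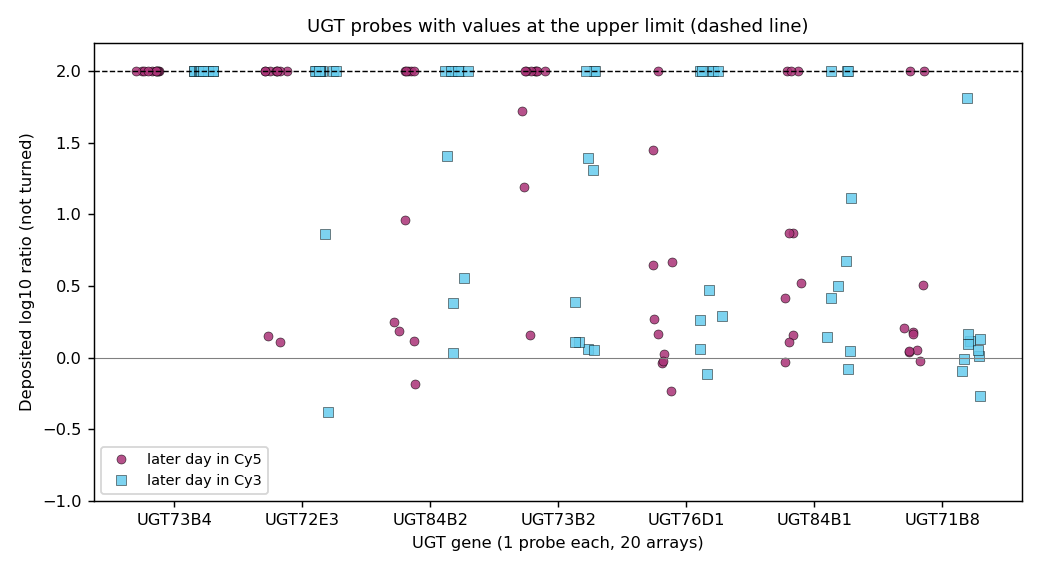
Deposited log10 ratios, not turned by dye, of the 7 UGT probes with values at the upper limit of 2 (dashed line) on the 20 arrays, split by which dye carried the later day. Points at the limit occur on both sides of the dye split for every probe but that of UGT71B8, and UGT73B4 has no value below the limit.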

How the data were processed

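Relative transcript levels came from 20 two-colour arrays, 1 deposited column of ratios per array. Per the labels' protocols, mRNA was amplified by in vitro transcription and the product was coupled to Cy3 or Cy5. The ratios that the authors deposited were taken to be on a log10 scale, since they end exactly at 2 and -2; the sources used here do not give the background correction, normalization, numerator or genome build. Of 30741 spots, 547 control or unannotated ones were left out, which left 30194 probes, 18740 of them with 1 gene symbol. Symbols were updated with RefSeq's TAIR10.1 gene table, used for names and gene order alone, and symbols shared by different genes were kept apart by locus. Each array held 30142 to 30180 values, and the number of arrays limits the precision.

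The direction was taken from the dyes, with Cy5 assumed to be the numerator. Opposite-dye arrays of an interval correlated at a median of 0.557 as deposited (20 of 20 pairs above 0; over probes never at a limit 0.0608, with 12 of 20 above 0), and at -0.118 after subtraction of each probe's mean over the arrays (2 of 20 above 0; over probes never at a limit -0.306). These correlations bear on whether the ratios had already been turned. They are the same for either channel order, and subtracting a mean over the arrays lowers them somewhat by itself. Ratios were turned to the later over the earlier day.

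Probes of a gene were averaged, a feature needed values on at least 3 arrays of each interval, and limit values were kept. With limma 3.58.1 in R 4.3.3, all 20 arrays were fitted with 5 interval coefficients and 1 dye coefficient (14 residual and 2.07 prior degrees of freedom), and the 4 sums per gene were tested against 0 (3 and 1.72). F tests asked for a change in any interval and for a difference between intervals. All p-values are two-sided and Benjamini-Hochberg adjusted over all 28634 features (28616 for the sums) and a threshold of 0.05. Neighbours were sought among the members alone, so genes between them under other symbols were not compared. Neighbouring members were compared by an exact sign-flip test over the 4 sets, which cannot pass because its smallest p is 0.125. At least 1 gene of each pair had been chosen for a call in these same sets. The direction of a difference is therefore partly set by that choice. The interval fit, the sums and the test of a difference between intervals were run on simulated independent values with changes added from day 3 to day 4. Those values stood for features never at a limit. The averaging of probes, limit values, RNA shared between arrays and the sign-flip test were not simulated.

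The labels give the 4 sets as independent tissue, and arrays of the same set and consecutive intervals share the RNA of a day. Their deviations from the interval means had a median correlation of -0.126 (16 pairs), against 0.0395 for different sets (120 pairs).

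The members, gene lists and tests were chosen with earlier results of these data known. Named are all members that passed, the 6 highest and 6 lowest by mean sum, the measured members of the role lists, cluster neighbours of members that passed, and pathway genes that passed; FAMA and the other marker genes are given as a list, and UGT76E1, UGT76E2, UGT85A4, UGT71B1, UGT71B5, UGT71C1, UGT71C2 and the pathway genes that did not pass were added after their values were seen. The cytokinin synthesis list and the abscisic acid and brassinosteroid metabolism list had no gene measured under its symbol. The alternatives were no dye coefficient, the set as a block, arrays scaled to 1 spread, limit values set to missing, a value required on every array, probes kept apart, ratios read as already turned, sums of the interval coefficients, and each set left out.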

Additional observations from a re-analysis of the deposited data

Results flagged for a closer look

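In 3 of 61 groups of 4 set values checked (all comparisons of the 9 members that passed, and the day 5 against day 0 sums of the other highest and lowest members), 1 set stood apart from the other 3 by more than Dixon's critical value, and chance flags about 1 in 20. UGT71C3 averaged -0.0678 from day 4 to day 5, with set 3 at -0.220 and the others between -0.0228 and -0.0120. UGT73C1 averaged -0.0498 from day 0 to day 1, with set 2 at 0.172 and the others between -0.131 and -0.115. UGT78D1 averaged 0.104 from day 2 to day 3, with set 3 at 0.334 and the others between 0.0228 and 0.0325. None of these 3 intervals was called for its gene.

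The change differed between the 5 intervals for 2 of 52 members by limma's F test (3.85%, close to the 3.12% of all features). UGT85A5 had an adjusted p of 0.0229, with means of 0.273 and 0.280 in the last 2 intervals and between -0.00135 and 0.0994 before. UGT85A2 had an adjusted p of 0.0454, with 0.134 from day 4 to day 5 and between -0.0363 and 0.0361 before.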

How the results depend on the processing

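Outside the reading of the ratios as already turned, all 13 called changes kept their sign, and 64 of 114 repeats kept the call; UGT76E11 from day 3 to day 4 kept it in all of them. With the replicate block (tissue set), the count of members called was 0 from day 0 to day 1 (UGT74F1 adjusted p = 0.0980, against 0.0419), 0 from day 1 to day 2, 2 from day 4 to day 5, 3 for a change in any interval and 0 for a difference between intervals, against 1, 1, 5, 5 and 2 without it; 5 called changes were lost, and no other. With arrays scaled to 1 spread, 0 were called from day 1 to day 2, 1 from day 4 to day 5 and 1 for a difference between intervals. Without the dye coefficient the last count was 1. With limit values set to missing, 7 members were called for day 5 against day 0, and with a value required on every array 5, with 4 for a difference between intervals. Probes kept apart left each of these counts within 1.5 times. Except where stated, the share of all features called in each fit is not given beside the counts of this section. A change in the call rate of the whole array therefore cannot be told apart here from a change in the family.

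Leaving out 1 set gave 0 to 4 members from day 0 to day 1, 0 to 4 from day 1 to day 2, 0 from day 2 to day 3, 1 to 3 from day 3 to day 4, 1 from day 4 to day 5, 0 for day 5 against day 0 (13 to 16 members had an unadjusted p under 0.05), 2 to 11 for a change in any interval and 1 to 7 for a difference between intervals. The counts of 4, 4, 11 and 7 came without set 3. For day 5 against day 0, no feature of the array passed in these fits.

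Read as already turned, the counts were 4 from day 1 to day 2, 3 from day 2 to day 3, 6 for day 5 against day 0 and 0 for a difference between intervals, and these values changed sign: UGT74F1 from day 0 to day 1 (-0.0501), UGT78D1 from day 1 to day 2 (-0.0182), UGT76E11 from day 3 to day 4, day 4 to day 5 and day 5 against day 0 (-0.0548, -0.00935 and -0.0618), UGT85A3 from day 4 to day 5 (-0.0478), UGT85A5 from day 3 to day 4 and day 5 against day 0 (-0.0274 and -0.122), and the uncalled sums of UGT76D1 (3.98) and UGT84B2 (6.43). The cause of these differences was not tested. The size of each value within 1 array is limited to 100-fold, and no signal over background was used here.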
